A study of Rattus norvegicus with 16 samples.

Results

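Srd5a1 encodes the type I steroid reductase that converts progesterone and testosterone to their reduced forms, and it is described here with 9 genes of neighbouring steps: Srd5a3, Akr1c14, Tspo, Star, Cyp46a1, Cyp7b1, Hsd17b10, Hsd17b12 and Hsd11b1. The 10 genes were taken by symbol from the 32754 identifiers of the deposited count tables, and each symbol had a single identifier. Srd5a1 was selected on its fall in 1 cohort, which was not named and is taken here to be the females. Its female values are therefore given as a description without a test. Its male values are tested on the assumption that the male libraries did not enter the choice, and their p is not independent of it otherwise. The other 9 genes were picked for their place in steroid, oxysterol and cholesterol metabolism.

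The study sequenced RNA of rat brain in wild-type animals and in Pink1-/- animals, which lack the mitochondrial kinase PINK1. According to the series title the tissue is nucleus ambiguus, a group of brainstem cells that includes laryngeal motor neurons, while the sample labels say only brain. Wild-type and Pink1-/- animals of each sex, all 8 months old, gave 4 groups of 4 libraries each. The 16 libraries carry different animal numbers, which name them here, and the labels give no strain, treatment or breeding scheme. Total counts ran from 10959412 to 13691846 in males and from 13875621 to 26570195 in females. The sexes also came in separate tables, so sex and library set cannot be told apart, and each comparison of levels stays within 1 sex. The first principal component of the male libraries held 38.1% of their variance, with Pink1-/- 17 and wild-type 23 at its ends. All Pink1-/- males had positive scores on it (7.87 to 42.7) and all wild-type males negative ones (-38.0 to -9.56). Male results without both end libraries are given after the 10 genes. Since this component separates the genotypes, leaving out its ends is not a check apart from genotype. Pink1 itself, the check of the labels, was at 64.7 CPM or more in every male wild-type library and averaged 1.88 ± 0.347 CPM (SD, n = 4) in male Pink1-/- libraries (log2FC -5.20 ± 0.13 SE, edgeR adjusted p = 2.0e-10). In females it averaged 128 ± 9.41 CPM in wild type and 7.06 ± 3.23 CPM in Pink1-/- (log2FC -4.16 ± 0.25 SE, edgeR adjusted p = 5.6e-05). CPM are counts scaled to library size (trimmed mean of M-values), and without gene lengths they are not compared between genes. Here log2FC is the log2 of the ratio of Pink1-/- to wild type, SE its standard error, and a gene is called at an adjusted p under 0.05.

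Neurosteroids are steroids made or converted within the brain. Cholesterol is carried into mitochondria, where the side-chain cleavage enzyme makes pregnenolone, and progesterone derived from it is reduced first by a steroid reductase such as Srd5a1 and then by a hydroxysteroid dehydrogenase such as Akr1c14 to allopregnanolone, a positive modulator of GABA-A receptors. Surplus brain cholesterol leaves by another route, in which neuronal Cyp46a1 adds a hydroxyl group to the side chain and the product can cross the blood-brain barrier. The oxysterol hydroxylase Cyp7b1 acts further along these routes, and Hsd11b1 regenerates active glucocorticoid inside cells.

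Promoter sequences are shown for Srd5a1, for the adjacent gene Nsun2, whose start lies on the opposite strand nearby, and for Cyp46a1, where male Pink1-/- libraries all lay above wild type. The 3 windows are from RefSeq on GRCr8, each from 250 bases before to 50 bases after the annotated start, written 5′ to 3′ on the strand of the gene, and capitals mark the GC box GGGCGG on either strand.
Srd5a1, chr1:35514664-35514963, plus strand: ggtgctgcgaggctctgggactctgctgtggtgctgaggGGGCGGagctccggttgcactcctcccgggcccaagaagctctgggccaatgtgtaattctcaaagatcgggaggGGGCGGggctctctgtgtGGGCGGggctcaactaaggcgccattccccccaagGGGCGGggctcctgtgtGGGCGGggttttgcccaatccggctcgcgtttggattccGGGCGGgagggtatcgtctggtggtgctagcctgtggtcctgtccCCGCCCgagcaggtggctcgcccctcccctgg
Nsun2, chr1:35514257-35514556, minus strand: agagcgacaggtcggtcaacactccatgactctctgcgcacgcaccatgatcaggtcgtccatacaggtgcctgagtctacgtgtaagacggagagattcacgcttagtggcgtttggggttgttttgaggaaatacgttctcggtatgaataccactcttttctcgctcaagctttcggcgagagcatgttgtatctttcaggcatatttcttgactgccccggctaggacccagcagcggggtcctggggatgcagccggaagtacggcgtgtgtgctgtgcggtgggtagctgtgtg
Cyp46a1, chr6:133011740-133012039, plus strand: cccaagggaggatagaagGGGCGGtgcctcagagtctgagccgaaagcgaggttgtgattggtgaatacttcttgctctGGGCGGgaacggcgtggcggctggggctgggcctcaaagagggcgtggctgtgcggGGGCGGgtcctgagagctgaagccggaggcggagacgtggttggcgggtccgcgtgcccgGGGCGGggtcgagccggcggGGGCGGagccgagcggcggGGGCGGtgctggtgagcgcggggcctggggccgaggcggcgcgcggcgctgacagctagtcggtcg
The Srd5a1 window held 7 GC boxes and was 67.7% G or C, against a median of 51.7% over 33469 RefSeq promoters of the same length. At least 1 GC box was present in 33.1% of all promoters and at least 7 in 0.520%. Cyp46a1 had 6 GC boxes, a number reached by 1.15% of promoters, at 73.0% G or C. Nsun2 had none, at 54.7% G or C, although its start lies 608 bases from that of Srd5a1 and the windows are separated by 107 bases. The CCAAT box (CCAAT, either strand) was found 2 times in the Srd5a1 window, 1 time in that of Cyp46a1 and not in that of Nsun2, against 37.5% of promoters with at least 1. The TATA box (TATAAA, in 14.2% of promoters) and the steroid receptor half-site (AGAACA, in 20.7%) were in none of the 3 windows, searched on both strands, and no base lay in more than 1 motif. A match of letters is a description and not a site of binding. Of the 10 genes, 6 had a promoter entry: these 2 and Srd5a3, Akr1c14, Hsd17b10 and Hsd17b12.

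Srd5a1 was lower in Pink1-/- than in wild-type females by a factor of 2.07. The female wild-type libraries had 26.7 CPM (animal 64), 24.3 CPM (111), 27.4 CPM (504) and 21.5 CPM (980). The female Pink1-/- libraries had 12.9 CPM (548), 11.02 CPM (602), 12.2 CPM (736) and 12.1 CPM (983). All 4 Pink1-/- females lay below all 4 wild-type females, and they spread over less than 2 CPM. The group means were 25.0 ± 2.65 CPM and 12.05 ± 0.761 CPM (SD, n = 4 each), a log2FC of -1.05 (SE 0.10). The counts behind these values were 452 to 627 in wild type and 160 to 297 in Pink1-/- libraries. This is taken to be the difference on which the gene was chosen, so no p is given. Over all 15265 genes tested in females, 0.0590% were called by the edgeR quasi-likelihood test at an adjusted p under 0.05.

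In males the mean of Srd5a1 was lower by a factor of 1.68, but the groups overlapped and the test was not passed. The male wild-type libraries had 24.1 CPM (animal 20), 20.9 CPM (22), 16.7 CPM (23) and 20.4 CPM (24). The male Pink1-/- libraries had 8.51 CPM (17), 14.6 CPM (18), 18.8 CPM (19) and 7.50 CPM (25). Pink1-/- 19 lay above wild-type 23, and the other 3 Pink1-/- males lay below every wild-type male. The means were 20.5 ± 3.05 CPM and 12.4 ± 5.33 CPM (SD, n = 4 each), a log2FC of -0.75 (SE 0.24), with an approximate 95% interval from -1.34 to -0.16. The edgeR quasi-likelihood test over 13770 genes gave an unadjusted p of 0.00899 and an adjusted p of 0.101. That test called 2.30% of all genes in males, and 26.2% had an unadjusted p under 0.05. The call depended on the method: DESeq2, which called 7.33% of the genes it gave an adjusted p, gave an adjusted p of 0.0319, while the likelihood ratio test of edgeR, with 6.95% called, gave 0.0505. The authors' deposited table gave a log2FC of -0.74 and a false discovery rate of 0.0348, among 6.21% of genes under 0.05. Without Pink1-/- 19 the adjusted p from edgeR was 0.0438 at a log2FC of -1.01, and with any other single male left out it lay between 0.119 and 0.216.

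The spread of Srd5a1 among Pink1-/- males was wide. On the log2 CPM scale the SD was 0.62 among Pink1-/- males and 0.22 among wild-type males, against 0.09 among Pink1-/- females and 0.16 among wild-type females. The female log2FC minus the male log2FC was -0.30 (SE 0.29, all 16 libraries). This difference includes the female contrast, so it has no test. In bulk tissue, fewer cells that express a gene and less of its RNA per cell cannot be told apart.

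**Figure D1:**
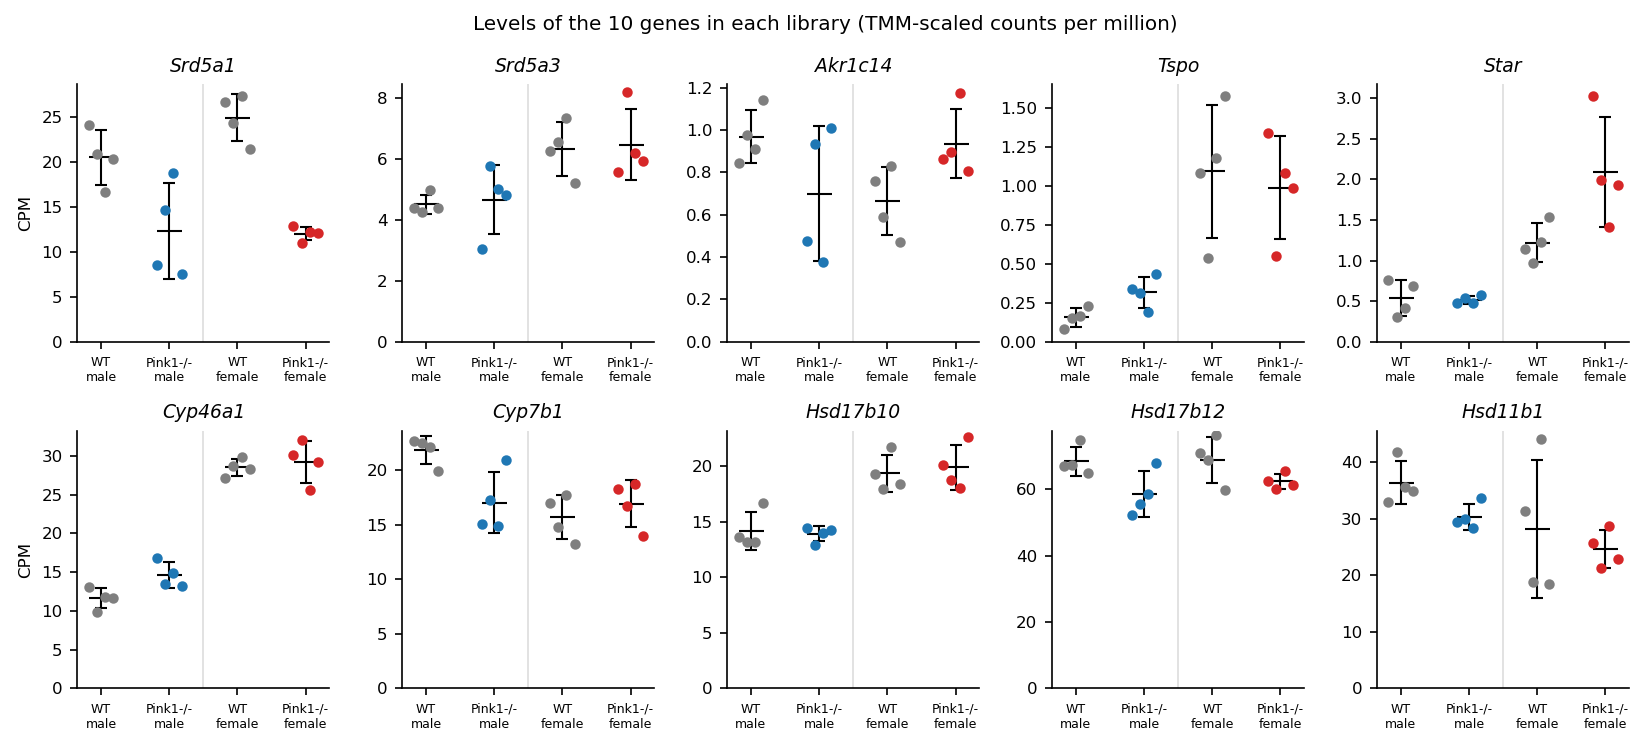
Each panel shows one of the 10 genes, with the level of every library in CPM on the vertical axis (starting at 0, scaled per gene) and the 4 groups on the horizontal axis; points are libraries, and the black mark and bar are the mean ± SD of 4. Srd5a1 is the panel in which female Pink1-/- libraries (11.02 to 12.85 CPM) stand clear of female wild type (21.5 to 27.4 CPM), while in males 1 Pink1-/- library lies inside the wild-type range.

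The second reductase of the set, Srd5a3, reduces polyprenol to dolichol for N-glycosylation. Its level was close between genotypes in both sexes. Male wild-type libraries ran from 4.28 to 4.98 CPM and male Pink1-/- libraries from 3.06 to 5.76 CPM, a log2FC of 0.04 (± 0.19 SE, edgeR adjusted p = 0.908). In females wild type ran from 5.21 to 7.34 CPM and Pink1-/- from 5.58 to 8.19 CPM, with a log2FC of 0.02 (± 0.16 SE, edgeR adjusted p = 0.995). The approximate 95% intervals ran from -0.42 to 0.50 in males and from -0.38 to 0.43 in females. Srd5a2, the third reductase gene, had at most 3 counts in any library and was not tested.

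Akr1c14, the rat hydroxysteroid dehydrogenase that acts after Srd5a1 on progesterone metabolites, was expressed at the edge of detection. Male wild-type libraries had 10, 13, 11 and 15 counts and male Pink1-/- libraries 7, 12, 4 and 14 counts. In females wild type had 14, 11, 19 and 12 counts and Pink1-/- 20, 13, 25 and 18 counts. The groups overlapped in both sexes. The log2FC was -0.45 in males (± 0.34 SE, edgeR adjusted p = 0.409) and 0.50 in females (± 0.29 SE, edgeR adjusted p = 0.993). The difference between the sexes was 0.95 (SE 0.44), with an unadjusted interaction p of 0.0441 and an adjusted p of 0.344. Akr1c14 has relatives in its gene family, so reads may be divided among them. Over the 4 groups Akr1c13 averaged between 1.05 and 2.31 CPM, Akr1c19 between 0.961 and 2.77 CPM and Akr1cl between 5.25 and 7.99 CPM.

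Star and Tspo act at the entry of cholesterol into mitochondria, Star as the carrier used in steroid-making cells and Tspo as a protein of the outer membrane. Both were scarce. Star had 4 to 9 counts in the 8 male libraries and was left out of the male test by the filter on low counts. In females Star was at 1.14, 0.968, 1.22 and 1.54 CPM in wild type (64, 111, 504 and 980) and at 3.03, 1.997, 1.41 and 1.93 CPM in Pink1-/- (548, 602, 736 and 983). The Pink1-/- values were higher except that 736 lay inside the wild-type range. The female log2FC of Star was 0.77 (SE 0.28), with an unadjusted p of 0.0195 and an edgeR adjusted p of 0.978. Tspo had 1 to 3 counts in wild-type males and 2 to 6 in Pink1-/- males, too few for the test. In females it ran from 0.538 to 1.58 CPM in wild type and from 0.551 to 1.34 CPM in Pink1-/- (log2FC -0.14 ± 0.36 SE, edgeR adjusted p = 0.995).

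Cyp46a1, the neuronal cholesterol hydroxylase, was the only gene of the 10 whose male groups did not overlap, and it still did not pass the test over all genes. Male wild-type libraries had 13.1 CPM (20), 9.90 CPM (22), 11.8 CPM (23) and 11.7 CPM (24). Male Pink1-/- libraries had 16.8 CPM (17), 13.5 CPM (18), 14.9 CPM (19) and 13.2 CPM (25). The lowest Pink1-/- male lay just above the highest wild-type male, and 15.2% of all genes tested in males had groups that did not overlap. The log2FC was 0.33 (SE 0.12), with an unadjusted p of 0.0174 and an edgeR adjusted p of 0.124. In females wild type ran from 27.2 to 29.9 CPM and Pink1-/- from 25.6 to 32.1 CPM, and the log2FC was 0.03 (± 0.09 SE, edgeR adjusted p = 0.995). Of the genes tested in females, 3.38% had groups that did not overlap, and none of the 9 genes other than Srd5a1 was among them. The interaction of genotype and sex for Cyp46a1 was -0.29 (SE 0.14, unadjusted p = 0.0542, adjusted p = 0.367, edgeR).

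Cyp7b1, which hydroxylates oxysterols and dehydroepiandrosterone, was lower on average in Pink1-/- males. Wild-type males had 22.7, 22.5, 22.2 and 19.9 CPM (20, 22, 23 and 24), and Pink1-/- males had 15.0, 17.3, 14.8 and 20.9 CPM (17, 18, 19 and 25). Pink1-/- 25 lay inside the wild-type range and the other 3 below it. The log2FC was -0.35 (SE 0.12, unadjusted p = 0.00988, adjusted p = 0.103, edgeR). In females the log2FC was 0.11 (± 0.13 SE, edgeR adjusted p = 0.993), with wild type from 13.3 to 17.7 CPM and Pink1-/- from 14.0 to 18.7 CPM. The difference between the sexes was 0.47 (SE 0.18), with an unadjusted interaction p of 0.0165. Of the 15042 genes in that test, 14.0% had an unadjusted p under 0.05. The adjusted interaction p was 0.264, and 0.0798% of all genes passed it.

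Hsd17b10 is a mitochondrial dehydrogenase of isoleucine breakdown and steroid oxidation that is also a subunit of mitochondrial RNase P. It was at 14.2 ± 1.68 CPM in wild-type and 13.9 ± 0.679 CPM in Pink1-/- males (log2FC -0.03 ± 0.11 SE, edgeR adjusted p = 0.900). In females it was at 19.3 ± 1.70 CPM and 19.9 ± 2.04 CPM (log2FC 0.04 ± 0.10 SE, edgeR adjusted p = 0.995). Its approximate 95% intervals ran from -0.29 to 0.24 in males and from -0.21 to 0.29 in females.

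Hsd17b12 is mainly the ketoacyl reductase of very long chain fatty acid elongation. Wild-type males had 67.0, 67.4, 74.8 and 64.8 CPM, and Pink1-/- males 52.2, 55.7, 58.5 and 68.1 CPM (17, 18, 19 and 25). Pink1-/- 25 again lay inside the wild-type range. The log2FC was -0.22 (SE 0.09, unadjusted p = 0.0252, adjusted p = 0.143, edgeR). In females it was -0.14 (± 0.08 SE, edgeR adjusted p = 0.993).

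Hsd11b1 had 32.9, 41.8, 35.7 and 34.97 CPM in wild-type males and 29.5, 29.9, 28.4 and 33.7 CPM in Pink1-/- males. Here too Pink1-/- 25 was the library inside the wild-type range. The log2FC was -0.26 (SE 0.09, unadjusted p = 0.0152, adjusted p = 0.119, edgeR). In females wild-type libraries ranged from 18.4 to 44.1 CPM and enclosed all Pink1-/- libraries, which ran from 21.2 to 28.8 CPM (log2FC -0.19 ± 0.25 SE, edgeR adjusted p = 0.993). The sign of the female difference turned when wild-type 504 was left out (0.11). H6pd, the enzyme that supplies the reducing cofactor to Hsd11b1, had 3.65 ± 0.689 CPM in wild-type and 5.27 ± 1.35 CPM in Pink1-/- males (edgeR adjusted p = 0.133), and Hsd11b2, which inactivates glucocorticoid, had at most 13 counts in any library.

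**Figure D2:**
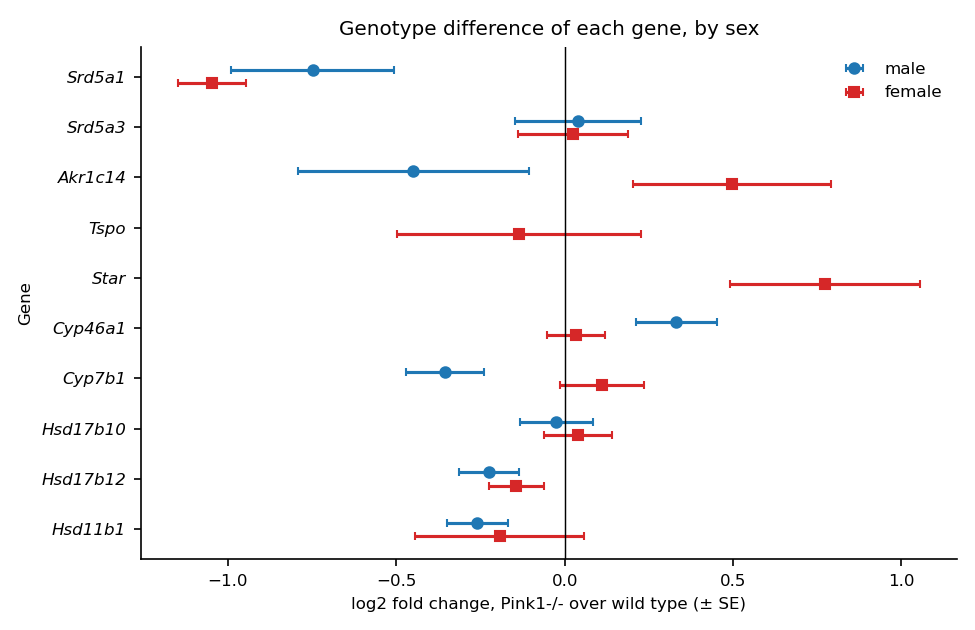
The horizontal axis is the log2FC (Pink1-/- relative to wild type) with its SE, and the vertical axis lists the 10 genes; circles are males and squares females, and Tspo and Star have no male point because their counts were too low. Srd5a1 lies to the left in both sexes (-0.75 and -1.05), while the points of Cyp46a1 and Cyp7b1 lie further from 0 in males than in females.

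Of the 8 genes tested in males, 0 passed the edgeR quasi-likelihood test, 5 had an unadjusted p under 0.05 (26.2% of all genes did) and 6 had a negative log2FC. Their median log2FC was -0.24, against 0.01 over all genes tested in males. DESeq2 called 1 of them (Srd5a1). Limma-voom and the likelihood ratio test called 0. Of the 9 genes other than Srd5a1 tested in females, 0 passed in any of these 4 tools, and 1 (Star) had an unadjusted p under 0.05, a level that 4.64% of all genes reached. Their female median was 0.03, against 0.00 over all genes. None of the 9 passed the interaction test in edgeR, where Akr1c14 and Cyp7b1 had an unadjusted p under 0.05. Without Pink1-/- 17 and wild-type 23, male Srd5a1 had a log2FC of -0.69 (edgeR adjusted p = 0.241) and Cyp46a1 one of 0.26 (edgeR adjusted p = 0.391), and none of the genes passed. Hsd17b12 moved from -0.22 to -0.13 (edgeR adjusted p = 0.510), Srd5a3 from 0.04 to 0.25 (0.497) and Hsd17b10 from -0.03 to -0.08 (0.808). Cyp7b1 was then at -0.29 (0.340), Hsd11b1 at -0.25 (0.318) and Akr1c14 at -0.31 (0.761).

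The summed markers of other cell types separated the genotypes in males in 1 of 9 lists. The summed level of the 5 measured meningeal and fibroblast markers was 22.8 to 31.0 CPM in wild-type males and 14.9 to 17.8 CPM in Pink1-/- males (exact 2-sided permutation p = 0.0286, the smallest that 4 against 4 libraries allow, adjusted over 9 lists 0.257), with 1 marker called: Ogn, at 13.1 ± 3.21 CPM in wild type and 3.74 ± 0.474 CPM in Pink1-/- males (SD, n = 4). The sum averaged 26.6 CPM in wild-type and 16.1 CPM in Pink1-/- males, and most of that difference was Ogn. Lum and Slc6a13, from the same list, averaged 1.61 and 1.89 CPM in wild-type and 1.64 and 2.61 CPM in Pink1-/- males. In females these sums overlapped (11.2 to 17.3 and 13.2 to 18.5 CPM). The other lists had overlapping sums in males. Of 7 tested microglia and macrophage markers, Mrc1 was called as lower (log2FC -0.61, edgeR adjusted p = 0.0407) and P2ry12 as higher (0.59, 0.0465) in males. Of 6 tested endothelial and pericyte markers, Pdgfrb was called as higher (0.58, 0.0318). The sum of that list averaged lower in Pink1-/- males, at 238 CPM against 250 CPM in wild type. Over all genes tested in males, edgeR called 2.30%. The summed blood markers of Pink1-/- 983 stood at 501 CPM, against 84.1 to 114 CPM in the other 7 females. The part of these markers in the values of the 10 genes was not tested, nor that of the meningeal markers in the male values of Srd5a1, Cyp7b1, Hsd11b1 and Hsd17b12. The summed motor neuron markers overlapped between genotypes and varied widely, from 92.0 to 366 CPM in wild-type and 79.1 to 242 CPM in Pink1-/- males and from 38.9 to 509 CPM in wild-type and 83.5 to 331 CPM in Pink1-/- females. Of these 7 markers Mnx1 was at 0 in all 16 libraries.

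The genes next to Srd5a1 on its chromosome were compared with it. In RefSeq gene order on GRCr8, the 3 tested genes on one side are Med10, Ube2ql1 and Nsun2, and on the other Tent4a (listed as Papd7), Adcy2 and Cfap90 (listed as RGD1308544). None of the 6 passed the edgeR test in either sex, and the groups overlapped for all of them. Nsun2, the RNA methyltransferase gene that starts beside Srd5a1, had 48.3 ± 3.15 CPM in wild-type and 45.0 ± 2.27 CPM in Pink1-/- males (log2FC -0.10 ± 0.07 SE, edgeR adjusted p = 0.382). In females it had 59.9 ± 5.69 and 59.7 ± 3.45 CPM (log2FC -0.01 ± 0.08 SE, edgeR adjusted p = 0.995). Adcy2, an adenylyl cyclase gene, was lower on average in both sexes, at -0.22 in males (± 0.08 SE, edgeR adjusted p = 0.132) and -0.21 in females (± 0.08 SE, edgeR adjusted p = 0.993).

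**Figure D3:**
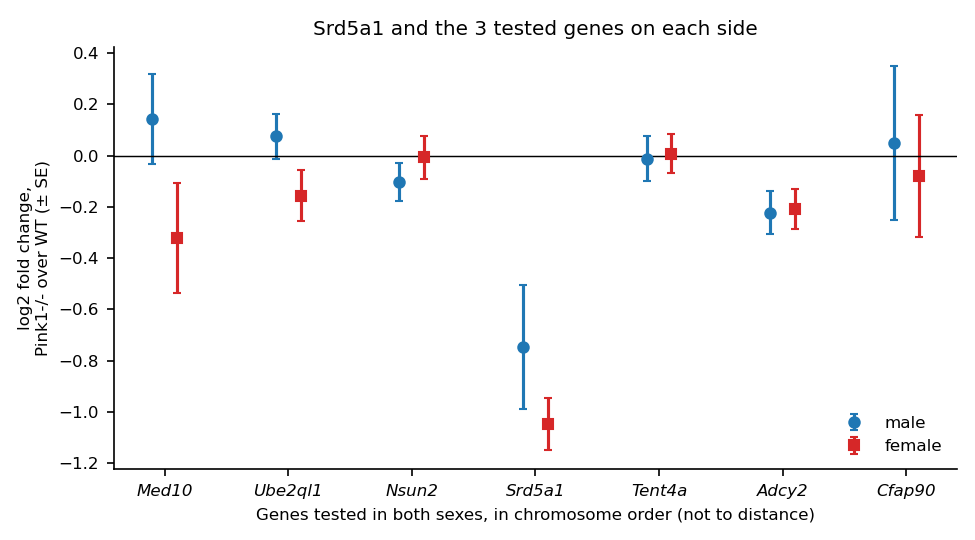
The horizontal axis gives Srd5a1 and the 3 tested genes on each side in chromosome order, without distances, and the vertical axis the log2FC (Pink1-/- relative to wild type) with its SE; circles are males and squares females. The flanking genes lie between -0.32 and 0.14, and Srd5a1 lies at -0.75 and -1.05.

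The genes around these steps were taken in 10 lists of 216 members, of which 211 matched an identifier (3 through a synonym). Among the 166 distinct genes tested in males, 0 rose and 2 fell by the edgeR quasi-likelihood test, which called 2.30% of all genes. Among the 182 tested in females 0 passed that test, against 0.0590% of all genes. An unadjusted p under 0.05 was found for 45 of the 166 in males, where 26.2% of all genes had one, and for 8 of the 182 in females, against 4.64% of all genes. The same shares stand beside the count of each list below. In males DESeq2, which gave an adjusted p to 156 of the 166, called 3 genes as higher and 7 as lower. The likelihood ratio test of edgeR likewise called 3 and 7, and limma-voom 1 and 3. DESeq2 called 7.33% and the likelihood ratio test 6.95% of all genes, and no share over all genes is given for limma-voom in males. In females each of these 3 tools called 0, and the last section gives how many genes each called in all. Acadsb and Sgk1 were called by all 4 tools in males.

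Upstream and beside these steps, the steroid-making enzymes Cyp11a1, Hsd3b1, Cyp17a1 and Cyp19a1 were near the limit of detection. Cyp11a1, the side-chain cleavage enzyme, had at most 2 counts in any library. Hsd3b1 had at most 2 counts, Cyp17a1 at most 2, and the aromatase Cyp19a1 at most 4. Of 15 listed genes of side-chain cleavage and early steroid steps 12 were matched, and Hsd3b2 and Hsd3b5 were not among them. Of the 12 matched genes, 5 could be tested in males and 6 in females, and none passed (unadjusted p under 0.05 for 1 in males and 0 in females). Their electron carriers were measurable: in males, Por, which supplies electrons to microsomal P450 enzymes, averaged 18.1 ± 2.75 CPM in wild type and 23.2 ± 4.30 CPM in Pink1-/- (log2FC 0.35 ± 0.14 SE, edgeR adjusted p = 0.146), and Fdxr, the mitochondrial counterpart, had a log2FC of 0.61 (± 0.36 SE, edgeR adjusted p = 0.289). Fdx1, the small protein that passes electrons from Fdxr to Cyp11a1, had 2.74 ± 0.483 CPM in wild-type and 2.01 ± 0.682 CPM in Pink1-/- males (log2FC -0.44 ± 0.26 SE, edgeR adjusted p = 0.290). At these depths a difference in Cyp11a1 or Cyp17a1 was not detectable.

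Among 17 tested genes of cholesterol delivery to mitochondria none passed in either sex. Of these, 8 had an unadjusted p under 0.05 in males, against 26.2% of all genes, and 1 in females, against 4.64%. The male median was -0.08 (11 of 17 negative), against 0.01 over all genes. The sterol carrier Stard5 had 5.88 ± 0.547 CPM in wild-type and 3.46 ± 1.35 CPM in Pink1-/- males (log2FC -0.77 ± 0.24 SE, edgeR adjusted p = 0.0970), and Stard4 had 19.6 ± 0.766 and 16.2 ± 1.03 CPM (log2FC -0.27 ± 0.09 SE, edgeR adjusted p = 0.102). Groups did not overlap for either gene in males, as for 15.2% of all genes. In females Stard4 was at -0.25 (± 0.10 SE, edgeR adjusted p = 0.993).

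Steroid reductases, dehydrogenases and conjugating enzymes had 15 members tested in males and 19 in females, and none passed (unadjusted p under 0.05 for 5 in males and 0 in females). Sult1a1, a sulfotransferase, had the smallest p of the list in males, at 9.83 ± 1.498 CPM in wild type and 6.52 ± 0.749 CPM in Pink1-/- (log2FC -0.59 ± 0.14 SE, edgeR adjusted p = 0.0531). Hsd17b4, a peroxisomal enzyme of fatty acid oxidation, had a male log2FC of -0.30 (± 0.08 SE, edgeR adjusted p = 0.0602). Of the oxysterol and bile acid genes, 14 were tested in males and 18 in females, again with none passing (unadjusted p under 0.05 for 4 in males and 0 in females). Abcg4, a sterol exporter of the brain, had a male log2FC of 0.74 (± 0.19 SE, edgeR adjusted p = 0.0640), and Nr1h2, the oxysterol receptor LXR-beta, one of 0.66 (± 0.23 SE, edgeR adjusted p = 0.118). Cyp27a1, which makes the other main side-chain oxysterol, averaged 3.24 and 3.04 CPM in wild-type and Pink1-/- males and 6.29 and 6.66 CPM in females.

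In cholesterol synthesis and its control, 0 of 27 genes tested in males and 0 of 28 in females passed the edgeR quasi-likelihood test, with 8 and 4 at an unadjusted p under 0.05. Mbtps1, the protease that releases the sterol-sensing transcription factors, had 38.8 ± 4.56 CPM in wild-type and 49.5 ± 2.897 CPM in Pink1-/- males (log2FC 0.35 ± 0.09 SE, edgeR adjusted p = 0.0602). In females it had 86.3 ± 6.17 and 99.4 ± 3.68 CPM (log2FC 0.20 ± 0.07 SE, edgeR adjusted p = 0.933). For Mbtps1 all Pink1-/- libraries lay above all wild-type libraries in both sexes. Groups did not overlap for 15.2% of all genes in males and 3.38% in females. In males DESeq2, the likelihood ratio test and limma-voom called Mbtps1. The median of the list was 0.07 in males, with 8 of 27 negative, and -0.06 in females, against 0.01 and 0.00 over all genes tested.

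Around the second roles of the dehydrogenases, 1 gene passed in males, where 2.30% of all genes were called. Acadsb, a dehydrogenase that acts earlier than Hsd17b10 in isoleucine breakdown but not directly before it, was in the list of 17 genes of mitochondrial RNase P and branched-chain breakdown, and it fell. Wild-type males had 52.3, 49.1, 55.0 and 47.8 CPM, and Pink1-/- males 34.0, 30.0, 34.9 and 44.4 CPM (log2FC -0.51 ± 0.11 SE, edgeR adjusted p = 0.0358). These male groups did not overlap, as for 15.2% of all genes. In females the log2FC of Acadsb was 0.07 (± 0.11 SE, edgeR adjusted p = 0.993), and the interaction was 0.58 (SE 0.16, unadjusted p = 0.00237, adjusted p = 0.205). The male call was lost without Pink1-/- 17, 18 or 19 and without wild-type 20, 22, 23 or 24, each left out alone, at adjusted p up to 0.0973, with library totals as the scaling (0.0767), and without Pink1-/- 17 and wild-type 23 together (0.132). Echs1, another isoleucine breakdown gene of the same list as Acadsb, had a male log2FC of -1.40 (edgeR adjusted p = 0.313) and was called by limma-voom only. The elongation list, chosen around Hsd17b12, also holds Acsl and Fads genes. Among its 16 genes tested in males none passed (6 at an unadjusted p under 0.05). The nearest were Hacd1 at -0.94 (± 0.24 SE, edgeR adjusted p = 0.0603) and Tecr at 0.39 (± 0.10 SE, edgeR adjusted p = 0.0694). Among 21 genes of the polyprenol, dolichol and N-glycan precursor path, where Srd5a3 acts, none passed in males (2 at an unadjusted p under 0.05), and the nearest was Alg14 at -0.44 (± 0.11 SE, edgeR adjusted p = 0.0617).

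Downstream, 1 of 23 genes tested in males among steroid receptors and glucocorticoid response genes passed, against 2.30% of all genes. In females 0 of 25 passed. An unadjusted p under 0.05 was found for 5 genes of this list in males and 1 in females. The male median was 0.03, with 11 of 23 negative. Others of the list had male log2FC of 0.46 (Per1), 0.40 (Zbtb16), 0.06 (Fkbp5), 0.04 (Dusp1), 0.03 (Klf9) and -0.09 (Tsc22d3), none called. Sgk1, a kinase gene induced by glucocorticoids, fell in males. Wild-type males had 125, 124, 74.4 and 90.9 CPM (20, 22, 23 and 24), and Pink1-/- males 49.8, 65.3, 76.2 and 44.6 CPM (17, 18, 19 and 25). The groups overlapped, since Pink1-/- 19 lay above wild-type 23, the same arrangement as for Srd5a1 (log2FC -0.82 ± 0.19 SE, edgeR adjusted p = 0.0459). The call was lost with library totals as the scaling (adjusted p = 0.0550) and with all 16 libraries in 1 fit (adjusted p = 0.0914). It was also lost without Pink1-/- 17, 18 or 25 and without wild-type 20, 22 or 24, each left out alone, at adjusted p up to 0.135. In females Sgk1 had a log2FC of -0.50 (± 0.30 SE, edgeR adjusted p = 0.993), and its difference between the sexes was 0.32 (SE 0.39, unadjusted p = 0.431). None of the GABA-A receptor subunit genes passed in males (13 tested) or females (14 tested), with 1 and 0 at an unadjusted p under 0.05. Their medians were -0.10 and -0.06, and Gabra5, the nearest in males, had a log2FC of -0.22 (± 0.08 SE, edgeR adjusted p = 0.122).

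**Figure D4:**
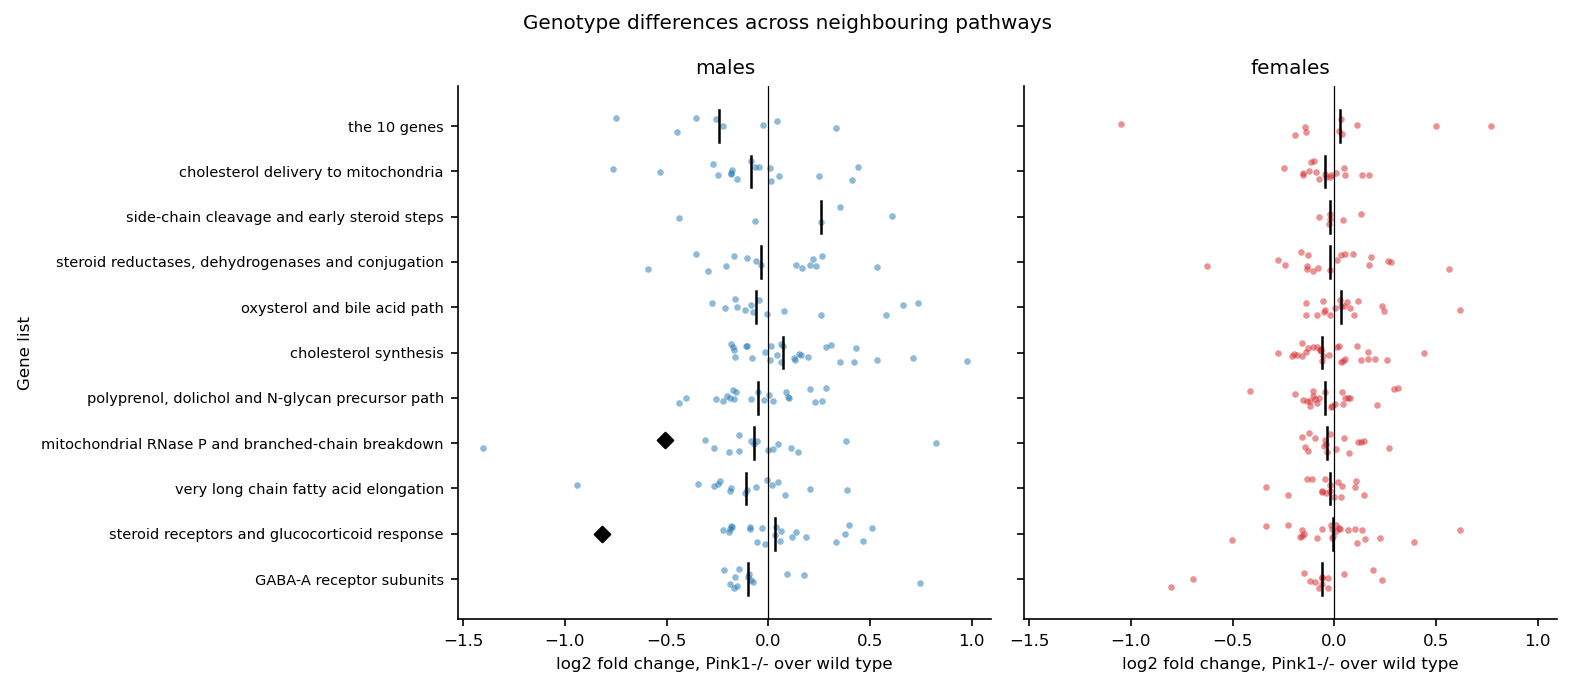
Each row is a gene list and each point a tested gene, placed by its log2FC (Pink1-/- relative to wild type) on the horizontal axis, with males in the left panel and females in the right; vertical bars are list medians and black diamonds are genes at an adjusted p under 0.05 (no test is drawn for Srd5a1 in females). Acadsb (-0.51) and Sgk1 (-0.82) are the diamonds in males, and females have none.

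**Figure D5:**
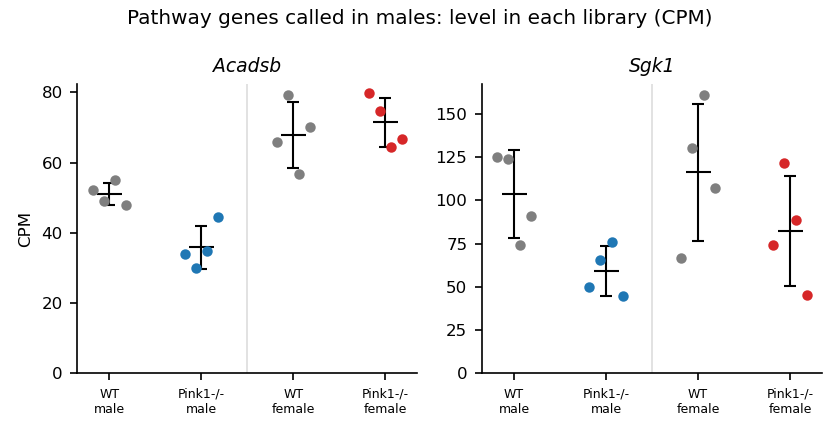
The level in CPM of Acadsb and Sgk1 is shown for every library on a vertical axis that starts at 0, with the 4 groups on the horizontal axis and the mean ± SD of 4 in black. Acadsb in Pink1-/- males (30.0 to 44.4 CPM) lies below wild-type males (47.8 to 55.0 CPM), and the female groups overlap for both genes.

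The genes whose levels followed Srd5a1 most closely within groups were found by Pearson correlation of log2 CPM with group means taken away, over 16 libraries and 12993 genes with a mean of at least 1 CPM in each sex. They were Nploc4 (r = 0.868, Spearman rho = 0.818), Hnrnpul2 (r = 0.857, rho = 0.762), Bora (r = 0.819, rho = 0.715), Slc10a1 (r = 0.816, rho = 0.885) and Stard3nl (r = 0.809, rho = 0.891). Nploc4 is a cofactor of a protein-unfolding complex, Slc10a1 a bile acid transporter, and Stard3nl a sterol-contact protein of late endosomes. These values describe the libraries and carry no p, and the 16 points share their library and its depth. The within-group SD of Srd5a1 was 0.47 in males and 0.13 in females, so the males weigh more in each r over 16 libraries. For Hnrnpul2 the likeness came from the males (r = 0.921, n = 8) and not the females (r = 0.0271, n = 8). Slc10a1 had 0.962 in males and 0.578 in females, Bora 0.853 and 0.578, and Nploc4 0.881 and 0.752, whereas Stard3nl had 0.825 and 0.828. None of the 5 was called for genotype in either sex. The 6 other members with a mean of at least 1 CPM in each sex had r between -0.17 and 0.35 with Srd5a1 (Srd5a3 at 0.35, Cyp7b1 at -0.17).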

How the data were processed

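RNA was measured in 16 rat brain libraries. The authors deposited estimated counts per gene, 1 table per sex, for 32754 Ensembl identifiers; the submitters' processing notes name RSEM and edgeR 3.9. The sources used here do not state the aligner, genome build or strandedness, and RSEM divides reads between similar genes. The counts were already whole numbers and were rounded without effect. The authors also deposited comparison tables that give, per the file headers, log2 fold change and mean log2 CPM, a likelihood ratio score, and a p-value with a false discovery rate. Columns were matched to labels by animal number, and 0 per-sample columns were left unused.

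Each sex was fitted separately with edgeR 4.0.16 (R 4.3.3): filterByExpr (minimum count 10, minimum total 15), TMM scaling, quasi-likelihood test, Benjamini-Hochberg adjustment over all genes, called at an adjusted p under 0.05. The filter kept 8 of the 10 genes in males and 10 in females. The interaction of genotype and sex used all 16 libraries. SE is the size of the log2 fold change divided by the root of its F, and approximate 95% intervals use 6 residual degrees of freedom. Log2 CPM carried a prior count of 2. Alternatives were RLE factors, library totals, no filter, a mean of at least 1 CPM, DESeq2 1.42.0, the likelihood ratio test, limma-voom (limma 3.58.1) with quality weights, 1 fit of all libraries, and each library left out. The code was tested on simulated data. That the libraries are separate animals rests on their animal numbers.

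Members, lists and tests were chosen with earlier results of these data known. Named genes were picked as the 10 members, Pink1, called list members with the smallest p (or, with none called, the 2 with the smallest p), 3 tested genes on each side of Srd5a1, and the 5 genes most like it. Not every list member so picked is printed, and none of those left out was called by edgeR. H6pd, Hsd11b2, Cyp27a1, Echs1, Fdx1 in males, the cell markers with a call, Srd5a2, the Akr1c relatives and the early enzymes near 0 were added from the lists after their values were seen. So were the glucocorticoid response genes named beside Sgk1. Some listed genes are not reported here and are in no list count. RefSeq tables (GRCr8) were used for promoters, synonyms and gene order only.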

Additional observations from a re-analysis of the deposited data

Results flagged for a closer look

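Hsd17b10 in male wild-type 24 stood at 16.6 CPM, while the other 3 wild-type males lay between 13.1 and 13.6 CPM, a gap of 0.859 of the whole range of the group. It was found among 40 groups of 4 libraries (the 10 genes in 4 groups), and chance alone flags about 1 in 20 groups. Leaving out any single male kept the log2 fold change of Hsd17b10 between -0.06 and 0.06.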

How the results depend on the processing

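No member was called in males by edgeR's main test, 1 (Srd5a1) by DESeq2, and between 0 and 1 with single males left out. All genes called in males numbered 317, against 168 with library totals, 523 with no filter, 853 by DESeq2, 957 by the likelihood ratio test, 609 with all 16 libraries in 1 fit, 98 to 217 with single males left out, and 153 without Pink1-/- 17 and wild-type 23, an alternative chosen after seeing the data. In females 9 genes were called, against 58 by DESeq2, 49 by the likelihood ratio test, 24 by limma-voom, 17 in the joint fit and 7 to 16 with single females left out. Some log2 fold changes changed sign, and the largest of these in the main fits were Hsd11b1 (-0.19) and Tspo (-0.14) in females. With library totals the sign changed for Tent4a in males (0.00271), Nsun2 in females (0.0433) and the interaction of Srd5a3 (0.0311). With limma-voom it changed for Cfap90 in males (-0.15), and for Srd5a3 (-0.0219) and Nsun2 (0.0132) in females. Cfap90 was at -0.12 without both males. With single libraries left out, the ranges that crossed 0 were, in males, Srd5a3 -0.0817 to 0.205, Hsd17b10 -0.0610 to 0.0619, Cfap90 -0.13 to 0.28, Tent4a -0.0441 to 0.0378 and Ube2ql1 -0.00399 to 0.120. In females they were Srd5a3 -0.11 to 0.10, Tspo -0.36 to 0.10, Cyp46a1 -0.0189 to 0.0928, Hsd17b10 -0.0363 to 0.103, Hsd11b1 -0.35 to 0.11, Cfap90 -0.262 to 0.0619, Fdx1 -0.174 to 0.00168, Nsun2 -0.0429 to 0.0571 and Tent4a -0.0216 to 0.0471. For the interaction they were Srd5a3 -0.18 to 0.10, Hsd17b10 -0.0226 to 0.129 and Hsd11b1 -0.0888 to 0.374. The cause was not tested. The Srd5a1 difference between the sexes ran from -0.48 without Pink1-/- 25 to -0.04 without Pink1-/- 19. No paired analysis was possible because the groups share no replicate numbers. Depth limits Tspo, Star and Akr1c14, with under 20 counts in every male library.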
